A study of Mus musculus with 4 samples.

Results

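S100 genes encode small calcium-binding proteins, and 7 of them (S100a1, S100a4, S100a6, S100a8, S100a9, S100a10 and S100a11) were followed here in single colon monocytes and macrophages. They were chosen by name, as 7 of the 28692 genes listed, and each symbol matched 1 Ensembl identifier. Cells of the colon lamina propria, the connective tissue under the gut epithelium, had been taken from 4 male C57/Bl6N mice and sorted for CD11b together with Ly6C or CD64. The DEP group, mice DEP 11 and DEP 13, was gavaged with diesel exhaust particles (12 µg, suspended in 200 µL PBS) on 5 days of each week over some 6 months. The PBS group, mice PBS 2 and PBS 3, was gavaged with PBS alone. No age and no genetic change was given in the labels, and each mouse gave 1 droplet library of the 10x Genomics type. The values are counts of unique molecular identifiers (UMIs), which count tagged molecules at the 3′ end of a transcript.

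S100 proteins carry EF-hand domains, change shape when calcium binds, and then attach to partner proteins. S100a8 and S100a9 form calprotectin, which neutrophils and young monocytes hold in large amounts and release in inflamed gut. S100a4 binds non-muscle myosin, S100a6 binds the calcyclin-binding protein, S100a10 pairs with annexin A2 at the plasma membrane, S100a11 binds annexin A1, and S100a1 is best known from heart muscle. In the colon, Ly6C-positive monocytes enter from the blood and turn into macrophages that lose Ly6C (mRNA Ly6c2) and make the complement protein C1q (mRNA C1qa).

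All 7 genes lie on chromosome 3 of mm10 in 2 groups, with S100a1, S100a4, S100a6, S100a8 and S100a9 between 90511034 and 90695721 and S100a11 and S100a10 between 93520488 and 93564643. The stretches from 250 to 21 bases before the RefSeq start (build GRCm38.p6, plus strand, 5′ to 3′) are given for S100a4, S100a6 and S100a11, because these genes were high in the same cells below. They cover chr3:90603520-90603749 for S100a4, chr3:90612644-90612873 for S100a6 and chr3:93520246-93520475 for S100a11, and capitals mark matches to the motifs named after them.
S100a4: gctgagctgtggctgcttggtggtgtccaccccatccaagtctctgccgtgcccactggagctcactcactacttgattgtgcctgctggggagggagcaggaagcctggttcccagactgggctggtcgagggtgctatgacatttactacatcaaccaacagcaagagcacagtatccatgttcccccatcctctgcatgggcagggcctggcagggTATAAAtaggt
S100a6: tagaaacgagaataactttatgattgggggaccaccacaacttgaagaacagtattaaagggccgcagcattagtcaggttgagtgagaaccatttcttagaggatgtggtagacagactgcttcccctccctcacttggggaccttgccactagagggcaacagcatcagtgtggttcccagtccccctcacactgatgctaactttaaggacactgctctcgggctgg
S100a11: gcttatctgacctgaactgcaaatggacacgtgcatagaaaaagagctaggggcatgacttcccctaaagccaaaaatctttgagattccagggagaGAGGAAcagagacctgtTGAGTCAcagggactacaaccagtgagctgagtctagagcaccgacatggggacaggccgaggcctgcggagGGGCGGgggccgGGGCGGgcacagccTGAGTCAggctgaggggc
Both strands of each stretch were searched for 4 short motifs that immune and general transcription factors are known to bind. The motif of the AP-1 type was written as TGANTCA, where N is any base. The motif of the PU.1 type, a factor of the myeloid lineage, was written as GAGGAA. The TATA box, which helps to place the start of transcription, was written as TATAAA. The motif of the Sp1 type, common in promoters with many G and C bases, was written as GGGCGG. The S100a4 stretch held a TATA box, 31 bases before the start, and the S100a6 stretch held none of the 4 motifs. The S100a11 stretch held 2 AP-1 type, 1 PU.1 type and 2 Sp1 type motifs, none of which overlapped. Over all 32851 promoters of the table, 6.34% held the AP-1 type, 21.3% the PU.1 type, 11.8% the TATA box and 29.8% the Sp1 type in the same 230 bases. No motif was found in all 3 stretches. The table held a promoter for 6 of the 7 genes, not for S100a10, and that of S100a8 held 2 PU.1 type motifs and a TATA box.

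Of 6954 barcodes, 4771 had at least 1000 UMIs. From these, 195 with at least 3 UMIs of T cell genes or of B and plasma cell genes were set apart, which left 4576 barcodes (636 to 1506 per mouse) with a median of 5792 UMIs. The retained barcodes held 3905198 UMIs in DEP 13 and up to 9589343 in PBS 2, so DEP 13 gave the least precise values. All 8 monocyte and all 10 macrophage markers were found, summing to 2140 to 2540 and 39800 to 48800 CPM (a gene's UMIs scaled to the total of its library or sum) per mouse. Markers of B and plasma cells still summed to 382 to 1370 CPM, and the highest value was in PBS 3. Within the Ly6c2 class described below they summed to 450 and 2680 CPM in DEP 11 and DEP 13 and to 312 and 1120 CPM in PBS 2 and PBS 3, and their part in the results of that class was not tested. No doublet call was made, and 75 of the 6954 barcodes carried a name that another library also used.

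S100a6 gave the most UMIs of the 7 genes in the retained barcodes (27629), followed by S100a11 (13754), S100a10 (11973), S100a4 (8729) and S100a1 (2914). These totals are 3′ UMI counts that were not divided by transcript length, so they are no order of levels between genes. S100a6 was found in 81.9% of the barcodes, S100a11 in 78.9%, S100a10 in 72.2%, S100a4 in 48.1% and S100a1 in 41.9%. With each barcode thinned at random to 1000 UMIs, which makes barcodes comparable in depth, the shares were 47.6%, 34.4%, 31.1%, 23.8% and 9.11%. In the 137 barcodes with B and plasma cell genes, with a median of 12359 UMIs, they were 29.2%, 24.1%, 31.4%, 8.03% and 2.92%. The S100a10 share over all retained barcodes was no larger than this, so it is not read as expression. Whether B and plasma cells make these mRNAs themselves was not tested, so absence of expression is not shown either. S100a4 was the most concentrated of these 5 genes, with 50.8% of its UMIs in the tenth of the barcodes that held most of them, against 35.8% for S100a11. The largest single value was 146 UMIs of S100a6 in 1 barcode.

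The calprotectin genes had almost no UMIs in the table. S100a9 was listed with 0 UMIs in all 6954 barcodes. A count of 0 among 32261816 UMIs allows at most 0.093 CPM, but whether its reads were lost in annotation or counting was not tested, and if they were this limit says nothing about expression. S100a8 had 11 UMIs in 10 barcodes, 1 each from DEP 11 and DEP 13, 4 from PBS 2 and 5 from PBS 3. All 11 lay in the retained barcodes and none in the barcodes with lymphocyte genes or in those under 500 UMIs. Whether reads of S100a8 were lost in annotation or counting was not tested either. Neutrophil markers were also scarce, with Camp and Ngp at 0, only 17 barcodes with a UMI of Ly6g, Retnlg, Cxcr2, Camp, Ngp, Ltf, Elane or Mpo, and a summed list of 41.9 to 53.3 CPM per mouse. Neither S100a8 nor S100a9 passed the filter of the gene tests, which required over 1 CPM in at least 2 sums and a UMI in at least 5% of the barcodes, and the other 5 genes did.

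To describe the genes by Ly6c2 and C1qa level, each thinned barcode was put into a class. The Ly6c2 class had at least 1 Ly6c2 UMI and 0 of C1qa (205 barcodes, 27 to 64 per mouse), and the C1qa class had at least 1 C1qa UMI and 0 of Ly6c2 (3393 barcodes, 485 to 1117 per mouse). A further 459 barcodes had both and 519 had neither. The classes are ranges and not cell types, since 64.9% of the Ly6c2 class and 17.9% of the C1qa class were at exactly 1 of these UMIs. Summed monocyte markers reached 7290 to 8440 CPM in the Ly6c2 class against 1220 to 1600 in the C1qa class, and macrophage markers 10700 to 18600 against 44700 to 53400. These lists include Ly6c2 and C1qa, which set the classes, so part of the contrast was fixed in advance. Ly6c2 gave 1020 to 1270 CPM of the monocyte sum in the Ly6c2 class. C1qa gave 4470 to 5540 CPM of the macrophage sum in the C1qa class. Median depth was 4832 UMIs in the Ly6c2 class and 6297 in the C1qa class. Markers of other cells also differed, since dendritic cell markers summed to 61.9 to 88.3 CPM in the Ly6c2 class, with Clec9a and Xcr1 at 0, against 25.6 to 48.4 in the C1qa class. The part of such cells in the class differences below was not tested.

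In the Ly6c2 class 4 of the 5 tested S100 genes were higher and 1, S100a1, was lower than in the C1qa class of the same mice. By edgeR's quasi-likelihood test on sums per mouse and class with the mouse as a block, 18.5% of the 6702 tested genes passed a false discovery rate of 5%, 10.0% higher and 8.48% lower in the Ly6c2 class. The median log2 fold change was 1.19 over the 5 S100 genes and -0.02 over all tested genes. All 4 mice showed the same direction for each of the 5 genes.

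S100a4, the myosin-binding member, differed most. In the Ly6c2 class it reached 1080 and 1280 CPM in DEP 11 and DEP 13, and 993 and 956 in PBS 2 and PBS 3. In the C1qa class it was at 197, 175, 191 and 191 CPM in the same order. The lowest value of the Ly6c2 class thus stood far above the highest of the C1qa class, and the log2 fold change was 2.45 ± 0.08 (SE) with an adjusted p of 3.78e-18 in edgeR. Only 2 genes of the 6702 had a smaller p, the first of them Ly6c2 itself. The annotation places another gene, Gm42674, over 51.7% of the exon bases of S100a4 on the same strand. Gm42674 was listed with 0 UMIs, and reads that match both genes can be lost in counting, so the level of S100a4 is uncertain. The last 160 exon bases of S100a4 are free of the overlap.

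S100a6, the calcyclin gene, was at 2360, 2710, 2400 and 2660 CPM in the Ly6c2 class of DEP 11, DEP 13, PBS 2 and PBS 3. In the C1qa class the same mice had 649, 640, 664 and 756 CPM. The classes did not overlap, and the log2 fold change was 1.86 ± 0.07 (SE; adjusted p of 7.22e-18, edgeR).

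S100a10, the annexin A2 partner, was at 675 and 656 CPM in the Ly6c2 class of DEP 11 and DEP 13, and at 892 and 964 in PBS 2 and PBS 3. In the C1qa class it was at 328, 327, 358 and 355 CPM. The log2 fold change between the classes was 1.19 ± 0.09 (SE; adjusted p of 3.4e-11, edgeR). The C1qa class values of S100a10 were close to the 322 CPM of the barcodes with B and plasma cell genes. They are thus near a level that is not read as expression, and the size of this fold change is uncertain. S100a11, which binds annexin A1, was at 855, 737, 840 and 724 CPM in the Ly6c2 class and at 454, 471, 396 and 401 in the C1qa class, in the order DEP 11, DEP 13, PBS 2 and PBS 3. Its log2 fold change was 0.86 ± 0.08 (SE; adjusted p of 6.58e-09, edgeR). For both genes each mouse had a higher value in the Ly6c2 class, and the 2 classes did not overlap.

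S100a1 went the other way on few molecules. In the Ly6c2 class it had 21, 9, 13 and 21 UMIs in DEP 11, DEP 13, PBS 2 and PBS 3, which made 72.7, 72.9, 42.3 and 77.2 CPM. In the C1qa class it was at 104, 113, 93.4 and 113 CPM. The log2 fold change was -0.73 ± 0.17 (SE) with an adjusted p of 0.00304 in edgeR. This call was lost with another random thinning, at -0.45 and an adjusted p of 0.0814 in edgeR, and with sums of thinned UMIs, at -1.13 and 0.0558. S100a1 and S100a13 lie side by side on opposite strands and do not overlap in the annotation.

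**Figure D1:**
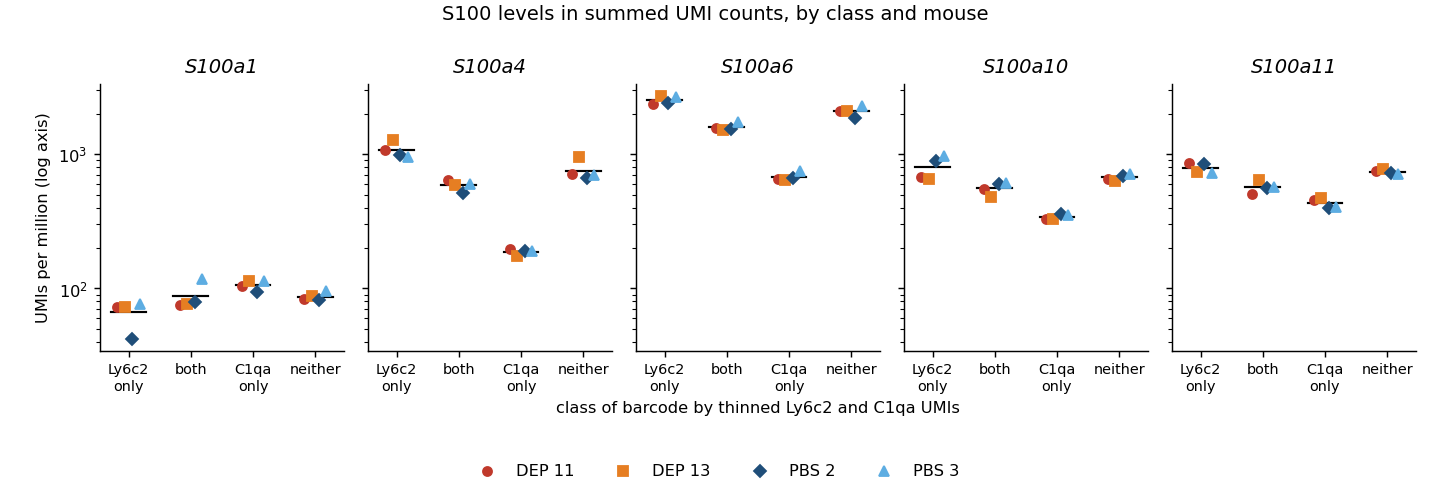
Level of the 5 tested S100 genes in CPM (log axis) of the summed counts of each mouse, by class of barcode; points are mice and the line is the mean of 4 mice. S100a4 is at 956 to 1280 in the Ly6c2 class and 175 to 197 in the C1qa class, while S100a1 is lower in the Ly6c2 class of each mouse.

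The barcodes with both mRNAs and those with neither lay between the classes for S100a4 and S100a6. S100a4 was at 517 to 647 CPM per mouse in barcodes with both and at 662 to 946 in those with neither. S100a6 was at 1510 to 1740 with both and at 1870 to 2280 with neither. Barcodes with neither mRNA therefore resembled the Ly6c2 class more than the C1qa class in these genes, and their S100a11 level of 718 to 775 CPM overlapped the Ly6c2 class. This group was mixed, since dendritic cell markers summed to 81.7 to 194 CPM in it, against 25.6 to 48.4 in the C1qa class, and epithelial markers to 4.9 to 279. The part of these cells in the S100 levels was not tested.

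Among barcodes without Ly6c2, 4 of the genes had lower means where C1qa was higher. These means are a description, with no test. S100a4 averaged 0.784 UMIs per thinned barcode at 0 C1qa UMIs (519 barcodes), 0.539 at 1 to 2 (1065 barcodes), 0.158 at 3 to 5 (1073 barcodes) and 0.0582 at 6 or more (1255 barcodes). Its highest bin was thus at 0.0742 times the lowest (0.0533 to 0.101 over the mice). S100a6 went from 2.03 through 1.70 and 0.65 to 0.33 UMIs, a ratio of 0.164 (0.13 to 0.244). For both genes the largest step lay between 1 to 2 and 3 to 5 C1qa UMIs.

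S100a10 and S100a11 differed less, ending at 0.357 times (0.306 to 0.413 over the mice) and 0.391 times (0.317 to 0.493) their values at 0 C1qa UMIs. In the highest bin S100a10 was at 0.251 and S100a11 at 0.289 UMIs per barcode, against 0.394 and 0.285 in barcodes with B and plasma cell genes. S100a4 and S100a6 averaged 0.117 and 0.431 UMIs in the latter, so the end values of the 4 genes, and the ratios taken from them, are at or near a level that is not read as expression. All 4 mice ended below their start for these 4 genes. S100a6 and S100a11 were lower at each step in 4 of 4 mice, and S100a4 and S100a10 in 3 of 4, the exception being DEP 13. S100a1 had no such order, with 0.0848 UMIs at 0 C1qa and 0.111 at 6 or more, and it was higher at the end in 3 of 4 mice. Median depth rose along the bins from 4810 to 7176 UMIs, and thinning had brought each barcode to the same number.

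**Figure D2:**
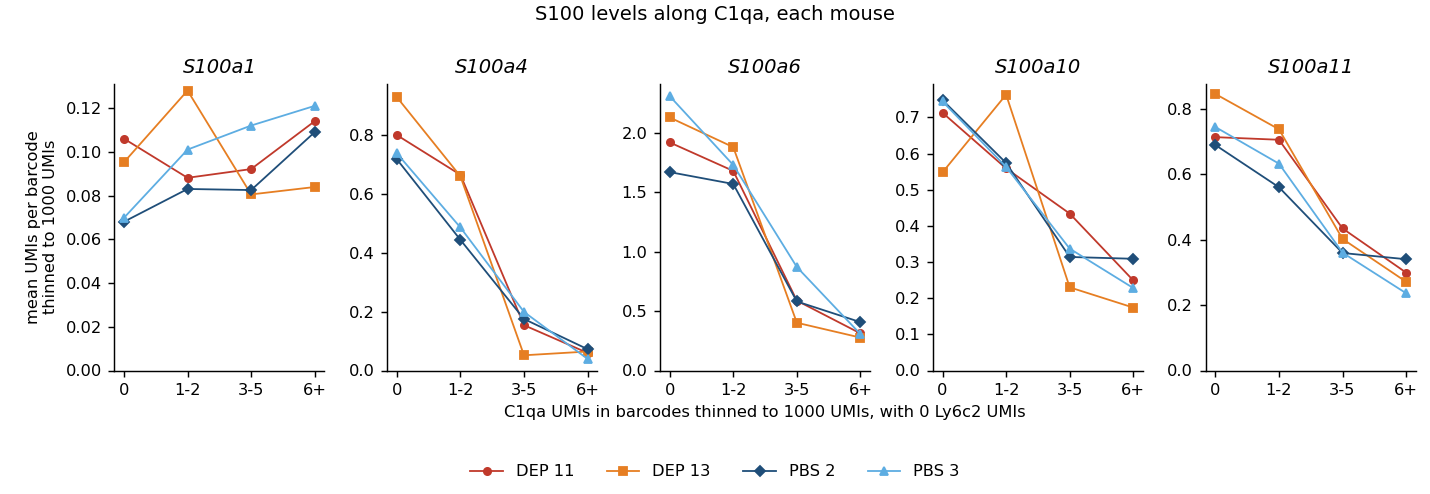
Mean UMIs of each S100 gene per barcode thinned to 1000 UMIs, against the number of C1qa UMIs in barcodes with 0 Ly6c2 UMIs; each line is a mouse. Over the pooled barcodes S100a4 ends at 0.0742 times and S100a6 at 0.164 times the first value, S100a10 and S100a11 at 0.357 and 0.391 times, and S100a1 at 1.31 times.

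At 6 or more C1qa UMIs, 4 of the 5 genes were found in no larger a share of thinned barcodes than in those with B and plasma cell genes named above, so these shares are not read as expression. S100a4 was found in 4.86% of the former and 8.03% of the latter, and S100a6 in 21.5% and 29.2%. S100a10 was found in 19.8% and 31.4%, and S100a11 in 24.1% of both. S100a1, at 10.6% and 2.92%, was the exception. For comparison, the Ly6c2 class held S100a4 in 60.5% and S100a6 in 85.4%. Whether free RNA or the cells' own RNA gave these UMIs was not tested.

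Along Ly6c2, at 0 C1qa UMIs, the bins were thin, with 133, 39 and 33 barcodes at 1, 2 and 3 or more Ly6c2 UMIs. S100a4 had means of 0.784 UMIs per barcode at 0 Ly6c2 and of 1.02, 1.31 and 1.52 in these bins, and S100a6 went from 2.03 to 2.44, 2.38 and 2.79. Both genes were higher at 3 or more than at 0 in each of the 4 mice. S100a10 (0.703 at 0 and 0.576 at 3 or more) and S100a11 (0.74 and 0.545) ended lower instead, in 3 and 2 of 4 mice, and for S100a10 this order turned with another thinning, to a ratio of 1.32.

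S100a8, with so few UMIs, can be given by class only as counts. Of its 11 UMIs, 5 were in the Ly6c2 class, 3 in barcodes with both mRNAs, 2 in the C1qa class and 1 in those with neither. This made 5.04 CPM in the Ly6c2 class (95% Poisson interval 1.64 to 11.8) and 0.0871 in the C1qa class (0.0105 to 0.315), and the intervals cover counting error only. The ratio was 57.9 with a counting interval of 9.48 to 608. It rests on 2 UMIs in the C1qa class and is not read as the size of a difference. Of the 5 UMIs of the Ly6c2 class, PBS 3 gave 3, DEP 11 and PBS 2 gave 1 each, and DEP 13 gave 0. The neutrophil markers summed to 72.7 to 107 CPM per mouse in the Ly6c2 class against 36.3 to 45.5 in the C1qa class, although 9 of the 12, Ly6g, Retnlg and Mpo among them, were at 0 in the Ly6c2 class. Their part in the S100a8 counts was not tested.

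Across barcodes of a mouse, S100a4 and S100a6 were nearest to each other. Over 4576 barcodes and 4441 genes found in at least 10% of them, Pearson's r of log2(1 + UMIs per 10000) was 0.737 as the mean of 4 mice (0.722 to 0.767), and each gene ranked first for the other. Next to them came Tmsb10, which encodes the actin-binding thymosin beta 10, and Gm9844, which may share reads with it, at r of 0.628 and 0.629 with S100a4 and 0.684 and 0.671 with S100a6. S100a10 was nearest to S100a6 (r of 0.55), Crip1 (0.544) and S100a4 (0.508). S100a11 was nearest to S100a6 (0.446), Crip1 (0.428) and Tmsb10 (0.423).

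S100a1 stood outside this group. Its nearest genes were Ms4a7 (r of 0.164), C1qc (0.16) and Cd63 (0.158), and its r with S100a4 was -0.06 and with S100a6 -0.05. C1qa, by contrast, was among the lowest of the 4441 genes for S100a4 (r of -0.595), S100a6 (-0.62), S100a10 (-0.35) and S100a11 (-0.30). These values describe barcodes that share a library and differ in depth, and values this weak for S100a1 are no finding.

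**Figure D3:**
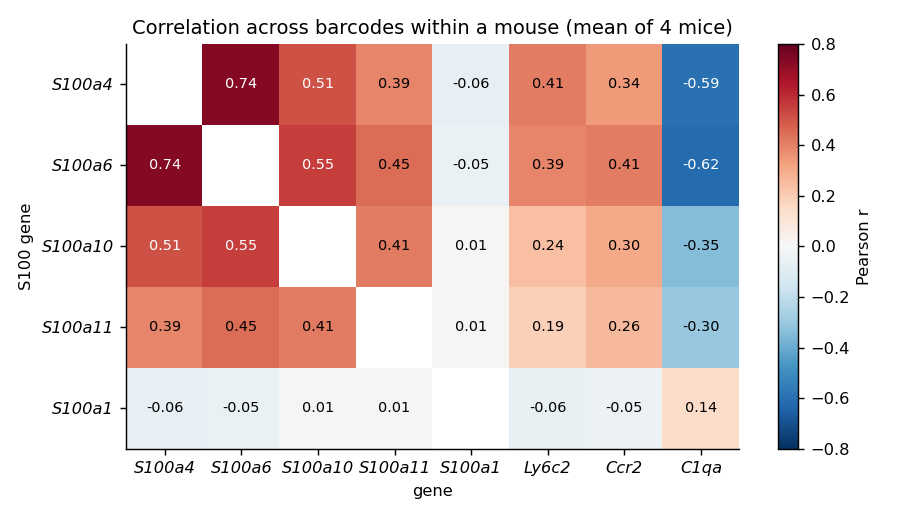
Pearson's r across barcodes, computed within each mouse and averaged over 4 mice, of 5 S100 genes with each other and with Ly6c2, Ccr2 and C1qa. S100a4 and S100a6 have the highest r, 0.737, and S100a1 is near 0 with the other S100 genes.

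The study asked how the particles change these cells, and DEP mice were therefore compared with PBS mice, first over all retained barcodes. None of the 5 S100 genes passed the test, and neither did any other gene (0% of 6553 called in the quasi-likelihood fit of edgeR). Without adjustment 174 genes had p under 0.05, while DESeq2 called 4 and edgeR's likelihood ratio test 10. The make-up of the barcodes differed as well, since those with neither mRNA, which were high in S100a4, made up 13.6% and 13.2% in DEP 11 and DEP 13 against 8.21% and 11.4% in PBS 2 and PBS 3. Barcodes with both mRNAs, which also had more S100a4 than the C1qa class, went the other way, with 9.75% and 6.29% against 11.8% and 10.4%, and the C1qa class overlapped, with 71.2% and 76.3% against 75.8% and 74.2%. The Ly6c2 class, where S100a4 was highest, made up 5.43% and 4.25% against 4.22% and 4.05%. The part of these shares in the sums was not tested. S100a11 was at 506 and 521 CPM in DEP 11 and DEP 13 against 448 and 456 in PBS 2 and PBS 3, a log2 fold change of 0.18 ± 0.15 (SE). S100a4 was at 326 and 313 against 280 and 298 CPM (0.14 ± 0.15), and S100a10 at 396 and 377 against 421 and 431 (-0.14 ± 0.15).

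In these 3 genes the groups did not overlap, as was so for 26.8% of all tested genes. S100a6 (951 and 906 against 885 and 1040 CPM, log2 fold change -0.06 ± 0.16) and S100a1 (98.3 and 107 against 89.6 and 111, 0.03 ± 0.18) overlapped. The adjusted p of each of the 5 was 0.999 in edgeR.

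Within the C1qa class, where 0% of 6738 genes were called (217 at an unadjusted p under 0.05, 7 by DESeq2 and 12 by the likelihood ratio test), none of the 5 S100 genes passed either. S100a11 was at 454 and 471 CPM in the DEP mice against 396 and 401 in the PBS mice, with a log2 fold change of 0.22 ± 0.16 (SE). S100a6 (649 and 640 against 664 and 756) gave -0.14 ± 0.16, S100a10 (328 and 327 against 358 and 355) gave -0.12 ± 0.16, S100a4 gave -0.04 ± 0.16 and S100a1 gave 0.07 ± 0.18. Over the alternatives run, the S100a6 value ranged from -0.265 to -0.0014. The groups did not overlap for S100a11, S100a6 and S100a10, against 28.1% of all tested genes. The S100a10 values of this class were close to the 322 CPM of the barcodes with B and plasma cell genes, so they are not read as expression. Ly6c2, which helped to set the class, was also lower in the DEP mice here, at 55.2 ± 16.5 (SD, n = 2) against 82.2 ± 19.3 CPM (adjusted p of 0.999 in edgeR), and its part in these values was not tested. Each adjusted p was 0.999 in edgeR.

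Within the Ly6c2 class 0% of 5535 genes were called (177 at an unadjusted p under 0.05, 0 by DESeq2 and 0 by the likelihood ratio test). S100a10 gave the largest of the 5 differences, with 675 and 656 CPM in the DEP mice against 892 and 964 in the PBS mice. Its log2 fold change was -0.50 ± 0.21 (SE), at an unadjusted p of 0.0325 and an adjusted p of 0.999 in edgeR's fit. It ranged from -0.31 with another thinning to -0.86 with sums of thinned UMIs, and no alternative made it pass. S100a4 (1080 and 1280 against 993 and 956) gave 0.26 ± 0.21, S100a1 0.27 ± 0.42, S100a6 -0.02 ± 0.21 and S100a11 0.02 ± 0.21. The groups did not overlap for S100a10 and S100a4, against 31.3% of all tested genes, and with another thinning S100a4 turned to -0.02. C1qa, which helped to set the class, was also lower in the DEP mice of this class, at a mean of 533 ± 54.9 (SD, n = 2) against 899 ± 106 CPM, and its part in the S100a10 value was not tested.

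An interaction term compared the DEP difference of the Ly6c2 class with that of the C1qa class, and 0.0448% of 6702 genes passed (308 at an unadjusted p under 0.05). None of the S100 genes was among these 3 genes, which were C1qa, C1qb and Selenop, named after their values were seen. The largest S100 value was that of S100a10, -0.41 ± 0.16 (SE; adjusted p of 0.973, edgeR), and the other 4 lay between -0.23 and 0.23. The S100a10 value ranged from -0.19 with another thinning to -0.86 with sums of thinned UMIs. The Ly6c2 class rests on 27 to 64 barcodes per mouse, and its standard errors, 0.21 to 0.42, were larger than the 0.16 to 0.18 of the C1qa class.

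**Figure D4:**
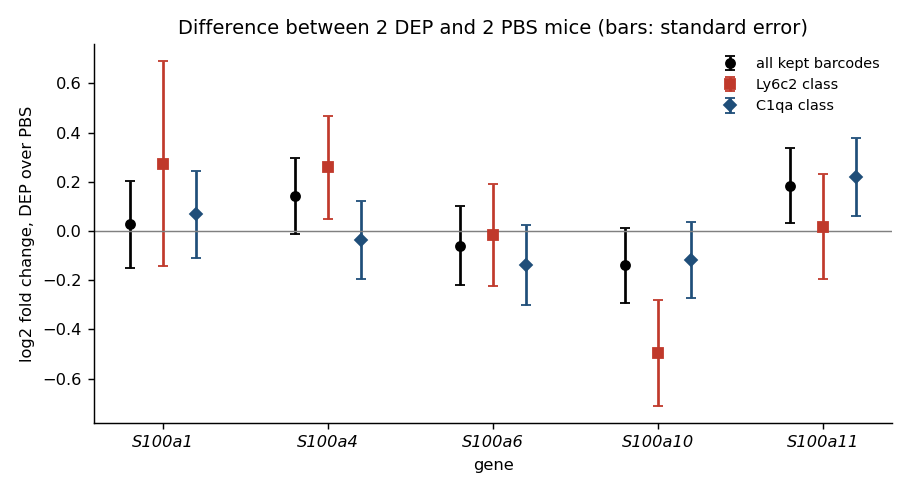
Log2 fold change of DEP over PBS mice for 5 S100 genes in all retained barcodes, the Ly6c2 class and the C1qa class; points are edgeR estimates from 2 against 2 mice and bars are standard errors. No value passed the test, and S100a10 in the Ly6c2 class, at -0.50, lies farthest from 0.

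The share of thinned barcodes with a UMI was compared between the groups as well. S100a6 was found in 45.3% and 45.6% of the barcodes of DEP 11 and DEP 13 and in 44.9% and 52.7% of those of PBS 2 and PBS 3. S100a10 was found in 30.8% and 27.7% against 32.0% and 31.9%, S100a4 in 25.3% and 23.7% against 22.6% and 23.5%, and S100a11 in 34.5% and 35.7% against 33.6% and 34.5%. The S100a10 shares were near the 31.4% of the barcodes with B and plasma cell genes and are not read as expression. The DEP minus PBS difference was -3.31 points for S100a6, -2.71 for S100a10, 1.44 for S100a4, 1.06 for S100a11 and 0.02 for S100a1. With each mouse left out in turn, the extremes came without DEP 11 (-4.27 points for S100a10, 0.674 for S100a4 and 1.65 for S100a11) and without DEP 13 (-1.16, 2.21 and 0.477 points). The S100a6 difference then ranged from -7.21 to 0.584 points, so its direction turned. The exact two-sided permutation test over mice gave p of 0.33 for S100a4, S100a10 and S100a11, the smallest that 2 against 2 mice allow, and p of 1 for S100a6 and S100a1.

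Of the other S100 genes on the list of 9, only S100a13 passed the filter. It had 5343 UMIs in the barcodes of at least 1000 UMIs and was 0.25 ± 0.12 (SE) higher on the log2 scale in the Ly6c2 class, at an adjusted p of 0.157 in edgeR. The remaining 8 had at most 31 UMIs each (S100a16), and S100a3 and S100z had 0. In the DEP comparison S100a13 was at -0.08 ± 0.17 over all barcodes.

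Partners and receptors of S100 proteins were taken from a list of 14 genes, of which 13 were tested between the classes. In the Ly6c2 class 3 were higher and 2 lower, against 10.0% and 8.48% of all tested genes. Their median log2 fold change was 0.05, against -0.02 over all tested genes. Anxa2, which forms a complex with S100a10, was at 697 to 879 CPM per mouse in the Ly6c2 class and 269 to 293 in the C1qa class, a log2 fold change of 1.42 ± 0.08 (SE; adjusted p of 1.83e-13, edgeR). Ahnak, a large scaffold protein that binds this complex, was higher by 1.13 ± 0.12 (SE), and Anxa1, the S100a11 partner, by 1.06 ± 0.11 (SE), with adjusted p of 4.26e-08 and 2.09e-08 in edgeR. The plasminogen receptor gene Plgrkt (-0.77 ± 0.19, SE) and the scavenger receptor gene Cd36 (-2.34 ± 0.47, SE, on 5 UMIs in the Ly6c2 class) were lower. Of the partners named at the start for S100a4 and S100a6, neither gene passed the test. The log2 fold change was 0.05 ± 0.22 (SE; adjusted p of 0.928, edgeR) for the myosin gene Myh9. It was 0.23 ± 0.17 (SE; adjusted p of 0.417, edgeR) for Cacybp, the calcyclin-binding protein gene.

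Of the receptors known for calprotectin, Bsg, which encodes basigin, was at 118 to 238 CPM per mouse in the Ly6c2 class and 179 to 237 in the C1qa class, a log2 fold change of -0.35 ± 0.13 (SE; adjusted p of 0.051, edgeR). Tlr4 was at 11.7 to 12.5 CPM per mouse over all retained barcodes, with a log2 fold change of -0.01 ± 0.47 (SE) between the classes and an adjusted p of 0.992 in edgeR. Ager, the receptor for advanced glycation end products, had 8 UMIs in all and 0 in the Ly6c2 class, and it was not tested. Between DEP and PBS mice, none of the partners and receptors passed the test over all barcodes or in either class, and the log2 fold change over all barcodes was -0.06 for Anxa2, 0.14 for Anxa1 and 0.04 for Tlr4.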

How the data were processed

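The authors' deposited table holds UMI counts, raw whole numbers for each Ensembl gene in each barcode. The submitters' processing notes list STAR 2.6.1a, R 3.5.1, the build mm10 and Cell Ranger. Each mouse was read from the barcode suffix, and 28416 of 28692 genes received a GENCODE M21 symbol. The genes and lists were chosen with earlier results of these data known, and the lymphocyte and neutrophil gates after seeing the data. The text names the 7 genes, other S100 genes, partners past the threshold or among Anxa2, Anxa1, Tlr4 and Ager (Bsg, Myh9 and Cacybp were added after their values were seen), class genes, and the 3 most correlated genes. Counts were summed per mouse and tested with edgeR 4.0.16 (R 4.3.3; quasi-likelihood F test, TMM scaling, Benjamini-Hochberg adjustment over all tested genes, SE as the log2 fold change over the root of F). DESeq2 1.42.0, other filters, scalings, thinnings and leaving out each mouse were tried. Scripts were tested on simulated counts. For DEP against PBS, a simulated log2 change of 1 was recovered in 75% of changed genes over all barcodes and 74% in the C1qa class. It was recovered in only 10.4% in the Ly6c2 class and 7% in the interaction, and a change of 2 in 62.5% and 46%. In these last 2 comparisons a gene that did not pass may thus still have changed. Thinning used 1000 UMIs per barcode. The study's limits (log10 genes of at least 2.5, mitochondrial share above 0 and up to 7%) were an alternative and leave 4623 barcodes, several times as many as the study states under these limits, so whether the retained barcodes are the study's cells is not known. Promoter sequences are from RefSeq. Replicates are separate mice, sorted in 1 batch.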

Additional observations from a re-analysis of the deposited data

Results flagged for a closer look

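Over the 4 mice, the S100a6 log2 ratio of the Ly6c2 class to the C1qa class was 2.08 in DEP 13 and 1.82 to 1.86 in the others. The gap was 0.846 of the range, above Dixon's 95% limit for 4 values, which chance passes in about 1 of 20 groups. S100a1, at 0.827, was just below it. DEP 13 had the fewest barcodes in both classes and the highest sum of B and plasma cell markers in the Ly6c2 class, 2680 CPM, whose part was not tested.

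The 5 tested S100 genes also had UMIs in barcodes set apart from the tests between groups and classes, while S100a8 and S100a9 had 0 there. In the 1614 barcodes under 500 UMIs the levels were 59.4 CPM for S100a1, 140 for S100a4, 615 for S100a6, 252 for S100a10 and 208 for S100a11. In the 55 barcodes with T cell genes S100a1 was at 68.8 CPM, S100a4 at 740, S100a6 at 2030, S100a10 at 1230 and S100a11 at 902. In the 137 barcodes with B and plasma cell genes the levels were 55.9 CPM for S100a1, 98.8 for S100a4, 388 for S100a6, 322 for S100a10 and 291 for S100a11.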

How the results depend on the processing

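Between the classes, 93 of 95 values of the 5 S100 genes kept their direction and side of the threshold over 19 alternatives, and the 2 others were those of S100a1 given above. Without the term for the mouse, which is the replicate block of this comparison, no S100 call changed. For DEP against PBS, no paired analysis was possible because the labels give the groups different mouse numbers. There, no S100 value became significant under any alternative run, and directions turned in 4 of 80 values over all barcodes, 12 of 89 in the Ly6c2 class, 7 of 90 in the C1qa class and 9 of 90 in the interaction. The causes were not tested. The barcodes with a shared name were left out as an alternative chosen after seeing the data. Depth limits the Ly6c2 class most, with 123506 UMIs in DEP 13.

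Genes called between the classes, 1238 above, numbered 710 with a limit of 2 class UMIs, 344 with sums of thinned UMIs and 794 in DESeq2. For DEP against PBS over all barcodes, 4 were called in DESeq2, 10 in the likelihood ratio test, 83 without a gene filter and 0 to 27 with each mouse left out. In the Ly6c2 class it was 3 with lymphocyte barcodes kept, 5 with the limit of 2, 6 with another thinning, 10 without a filter and 2 to 18 with each mouse left out. In the C1qa class it was 7 in DESeq2, 12 in the likelihood ratio test, 78 without a filter and 9 to 23 with each mouse left out. In the interaction it was 13 at 2000 UMIs, 5 under the study's limits, 0 with lymphocyte barcodes, 12 with the limit of 2, 5 with thinned sums, 13 with RLE factors, 0 in DESeq2, 5 in the likelihood ratio test, 18 without a filter, 18 with filterByExpr and 7 to 32 with each mouse left out.

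Turned log2 values in the Ly6c2 class were, for S100a11, -0.0579 with lymphocyte barcodes, -0.318 with the limit of 2, -0.35 with thinned sums and -0.0166 without a filter. Another thinning gave -0.672 for S100a1 and -0.017 for S100a4, and thinned sums -0.093 for S100a4. Thinned sums gave -0.000265 for S100a1 over all barcodes, and in the C1qa class -0.0324 for S100a1, 0.107 for S100a4 and 0.000649 for S100a10. In the interaction, S100a6 was -0.00824 with lymphocyte barcodes, -0.00841 with the limit of 2, -0.123 with another thinning and -0.00891 with thinned sums. S100a1 was -0.734 and S100a4 -0.0636 with another thinning, and S100a4 -0.188 with thinned sums. The S100a1 share differed by -0.0464 points under the study's limits and by -0.0995 with lymphocyte barcodes.

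With each mouse left out in turn, where the lone mouse of a group is assumed to vary like the others, turned log2 values ranged over all barcodes from -0.154 to 0.23 for S100a1 and from -0.208 to 0.107 for S100a6. In the Ly6c2 class they ranged from -0.141 to 0.799 for S100a1, -0.151 to 0.115 for S100a6 and -0.0659 to 0.0939 for S100a11, and in the C1qa class from -0.102 to 0.256 for S100a1 and -0.0875 to 0.0131 for S100a4. In the interaction they ranged from -0.059 to 0.552 for S100a1 and -0.00624 to 0.148 for S100a6. The difference in shares ranged from -0.494 to 0.542 points for S100a1 and from -7.21 to 0.584 for S100a6. Over all barcodes S100a6 turned to 0.107 without PBS 3, and S100a1 to -0.154 without PBS 2 and -0.0646 without DEP 13.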
